A study of Macaca mulatta with 18 samples.

Results

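The regions described here are CTCF peaks found in both GZ and CP that lay away from every chromatin loop end. They were chosen as autosomal peaks of the GZ CTCF list that overlapped a CP CTCF peak by at least 1 bp and lay more than 10 kb from every anchor of every loop listed in GZ or CP. The rule kept 6412 peaks of the 30883 in the GZ list. Of the 29938 autosomal GZ peaks, 19611 overlapped a CP peak. Among these shared peaks, 6412 (32.7%, 95% Wilson interval 32.0 to 33.4%) were outside anchors, 2438 (12.4%) were within 10 kb of an anchor without overlapping it, and 10761 (54.9%) overlapped an anchor. Every member was used, and no filter on low values was applied.

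CTCF is a zinc-finger DNA-binding protein that halts the cohesin ring as it extrudes DNA, so that a pair of CTCF sites facing each other can hold the base of a chromatin loop. It is also enriched at the borders of contact domains, where it limits contacts between neighbouring stretches of chromatin. Many CTCF sites in a genome are bound without a called loop ending there. Bound sites usually lie in open chromatin, which DNase-seq detects as DNA that the enzyme DNase I can cut.

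The samples were brain of wild-type rhesus macaque (Macaca mulatta) at embryonic day 84, split into 2 tissues that the labels call GZ and CP and do not spell out. CTCF ChIP-seq and DNase-seq had 1 library per tissue, both numbered RM01, and Hi-C, which records contacts between DNA segments, and RNA-seq had 3 libraries per tissue, RM01 to RM03. The 3 Hi-C libraries of a tissue share 1 loop list and 1 boundary list, taken as pooled. The lists held 22044 CTCF peaks in CP, 15048 GZ loops and 9399 CP loops with 20676 distinct autosomal anchors of 10 kb, 2806 GZ and 2584 CP domain boundaries of 40 kb, and 83028 GZ and 71800 CP DNase peaks of 146 bp. The sequencing depth of the CTCF and DNase libraries is unknown. A loop was backed by a median of 82 observed contacts in GZ and of 75 in CP. In the RNA, on the log2 FPKM scale, all 4 progenitor markers (PAX6, GLI3, MKI67 and TOP2A) were higher in every GZ library than in any CP library, with levels of 3.65 to 6.64 and 1.60 to 4.74, and all 4 neuronal markers (NEFL, NEFM, SYT1 and GRIN2B) were higher in every CP library than in any GZ library. The vessel markers CDH5 and FLT1 were both higher in every CP library, at 3.19 to 4.06 against 0.811 to 2.36 in GZ, and the microglial markers C1QC and TYROBP overlapped, at 2.21 to 4.18 in GZ and 1.91 to 4.58 in CP. The part of these cell types in the results was not tested. CTCF RNA lay between 5.89 and 5.99 in the 3 GZ libraries and between 5.53 and 5.85 in the 3 CP libraries, without overlap.

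With a single CTCF library and DNase library per tissue, peaks are not replicates and no test between groups was possible. All comparisons below are descriptions. Shares carry 95% Wilson intervals and medians carry 95% order-statistic intervals. These cover counting error only and not the spread between samples. Presence in both lists and distance from anchors were used to choose the regions and are not results. Fold enrichment is the authors' value from the peak caller, the signal at the peak over the local background, and it is ranked only within a tissue's list.

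CTCF was less enriched at these sites than at loop ends in both tissues. In GZ the median fold enrichment of the 6412 peaks was 14.5 (interval 14.2 to 14.7), against 19.2 (19.0 to 19.5) for the 10761 shared peaks at anchors. Shared peaks within 10 kb of an anchor lay between, at 16.5 (16.1 to 16.8). The middle 50% of peaks outside anchors spanned 9.10 to 21.0 and of those at anchors 13.8 to 25.9, so the distributions overlapped widely while their medians stood apart by more than counting error. Peaks outside anchors ranged from 2.43 to 74.8, and those at anchors from 2.40 to 92.5.

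In CP the order of the groups was the same. The median CP fold was 6.73 (6.65 to 6.82) outside anchors, 6.88 (6.75 to 7.01) within 10 kb and 7.34 (7.28 to 7.41) at anchors. The intervals outside anchors and within 10 kb overlap. Since the caller's folds of separate libraries are not on a common scale, the levels of GZ and CP were not set against each other. Ranked within the autosomal part of its own list, the median peak outside anchors stood at percentile 52.5 in GZ and 45.7 in CP. The median peak at anchors stood at percentile 69.8 in GZ and 54.5 in CP, and the median of all shared peaks at 63.6 and 50.9.

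**Figure D1:**
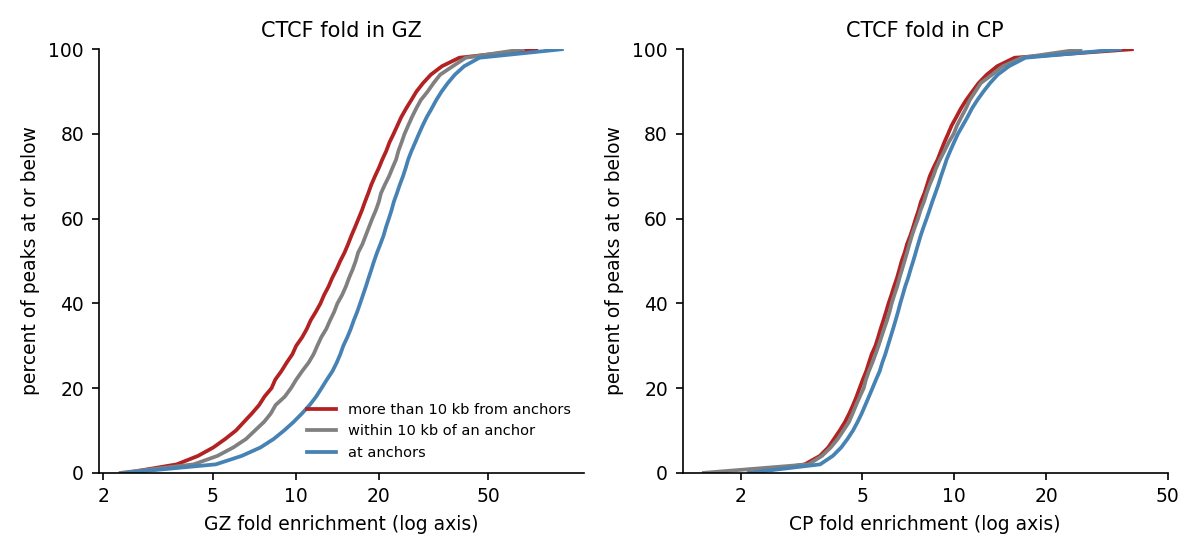
Cumulative curves of CTCF fold enrichment (x axis, log scale, a ratio without unit) in GZ on the left and CP on the right, with the percent of shared peaks at or below each value on the y axis. Peaks outside anchors (red, n = 6412) lie to the left of peaks at anchors (blue, n = 10761) in both tissues, with medians of 14.5 and 19.2 in GZ and 6.73 and 7.34 in CP, and peaks within 10 kb of an anchor (grey, n = 2438) lie between.

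The caller's statistical score gave the same order. Median -log10 q was 54.7 outside anchors and 78.8 at anchors in GZ, and 18.9 and 26.1 in CP. Peaks were also narrower away from anchors. The median GZ width was 373 bp (370 to 375) against 397 bp (395 to 398) at anchors, and the median CP width was 309 bp (306 to 311) against 327 bp (325 to 329). On each of the 20 autosomes taken alone, the median fold, -log10 q and width of both tissues were lower outside anchors than at anchors.

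Since members were chosen for overlap between the lists, their summits, the points of highest signal, had to lie close together, and the distance is given as a description. GZ and CP summits lay a median of 15 bp apart outside anchors and 14 bp apart at anchors. They were within 50 bp of each other in 5818 of the 6412 peaks outside anchors (90.7%), near the 92.5% of all shared peaks.

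The anchor class changed steadily along the scale of enrichment. When the 19611 shared peaks were ordered by GZ fold and split into 10 equal groups, 53.5% (51.3 to 55.7%) of the weakest group lay outside anchors and 32.6% at anchors. In the strongest group, with GZ folds from 31.7 upward, 18.3% (16.6 to 20.0%) lay outside anchors and 71.9% at anchors. The share outside anchors was lower in each successive group. By CP fold it went from 42.8% to 26.0%, and it was again lower in each successive group. Thus 358 of the 1961 strongest GZ sites still had no loop end within 10 kb. When the groups were formed by GZ -log10 q, the share outside anchors went from 49.4% to 25.9% in the ninth group and was 28.4% in the strongest.

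**Figure D2:**
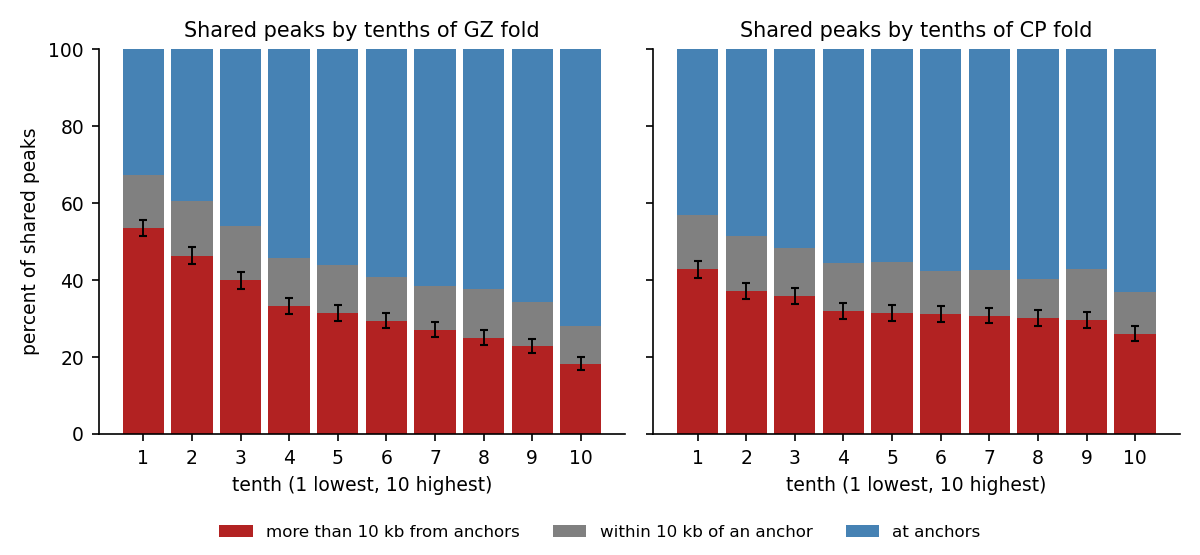
Percent of shared CTCF peaks (y axis) that lie more than 10 kb from anchors (red), within 10 kb of one (grey) or at one (blue), for 10 groups of equal size ordered by GZ fold (left) or CP fold (right, x axis from weakest to strongest); black bars are 95% Wilson intervals of the red share. The red share goes from 53.5% to 18.3% by GZ fold and from 42.8% to 26.0% by CP fold.

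Loop ends can be listed in one tissue or in both, and peaks at anchors differed by that too. The 6789 shared peaks at anchors of both loop lists had a median GZ fold of 20.1, the 3226 at anchors of the GZ list only had 18.5 and the 746 at anchors of the CP list only had 16.1. All 3 values were above the 14.5 of peaks outside anchors. By median GZ -log10 q, 80.7 and 79.8 in the first 2 classes were above the 54.7 outside anchors, but peaks at anchors of the CP list only had 52.0 (48.0 to 59.5). The GZ width of that class, 378 bp (370 to 386), also overlapped that outside anchors. Median CP folds were 7.48, 6.97 and 7.50 in the same order, also above the 6.73 outside anchors.

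CP overlap and anchor distance chose the members, so the link between them is given as a description of the rule. Of 10327 autosomal GZ peaks without a CP partner, 58.3% (57.3 to 59.2%) were outside anchors and 27.2% at anchors, against 32.7% and 54.9% of shared peaks. Put the other way, 51.6% of all autosomal GZ peaks outside anchors overlapped a CP peak, 61.8% of those within 10 kb did, and 79.3% of those at anchors did. The 6016 GZ peaks outside anchors without a CP partner had a median GZ fold of 8.38 and a median width of 272 bp.

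The members with the highest GZ fold were chosen for that value, and their CP values are given beside it. Coordinates are 1-based on the build rheMac8, and no gene annotation of that build was used, so genes are not assigned. The peak with the highest GZ fold, chr16:76708836-76709293, had 74.8 in GZ and 4.84 in CP, which placed it at percentile 15.9 of the CP list. It lay 231 kb from the nearest anchor and overlapped a DNase peak in both tissues. The next, chr3:33713976-33714344, had 68.3 in GZ and 13.0 in CP, and overlapped a DNase peak in GZ only. The following 3 were chr7:85781128-85781582 with 64.1 in GZ and 6.82 in CP, chr9:109469455-109469902 with 63.1 and 5.51, and chr8:6310157-6310611 with 61.4 and 8.15. Of these 5 peaks, only the one on chromosome 3 was also above percentile 90 of the CP list by fold. By CP -log10 q, however, they had 22.3, 40.7, 34.3, 50.2 and 51.6 in the same order, all above the members' median of 18.9.

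The 3 peaks with the highest CP fold were other sites. The peak chr3:139198721-139199071 had 38.2 in CP, the highest of the autosomal CP list, and 28.8 in GZ. It lay 259 kb from an anchor, with both summits 2 bp apart. The peak chr8:52657907-52658235 had 35.3 in CP and 23.6 in GZ, and lay 328 kb from an anchor. The third, chr5:132120707-132121084, had 28.4 in CP and 12.3 in GZ, which put it at percentile 43.8 of the GZ list. The widest GZ peak, chr4:140074360-140075966, covered 1607 bp in GZ and 1141 bp in CP at folds of 23.8 and 6.11.

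Values on either side of the 10 kb limit are given as a description of the rule. The 3 peaks just outside it were 10004, 10021 and 10031 bp from an anchor, with GZ folds of 25.2, 9.43 and 15.0 and CP folds of 6.62, 8.57 and 8.49. The 3 shared peaks just inside it were 10000, 9999 and 9965 bp away, with GZ folds of 11.5, 38.8 and 24.2 and CP folds of 8.05, 11.8 and 5.36.

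Fewer of the CTCF sites outside anchors lay in open chromatin. Of the 6412 peaks outside anchors, 4705 (73.4%, 72.3 to 74.4%) overlapped a GZ DNase peak, against 87.3% (86.7 to 87.9%) at anchors and 81.5% of all shared peaks. In CP, 4498 (70.1%, 69.0 to 71.3%) overlapped a DNase peak, against 83.7% (83.0 to 84.4%) at anchors and 77.9% of all shared peaks. Within 10 kb of an anchor the shares were 77.1% in GZ and 72.7% in CP. Both shares were lower outside anchors than at anchors on all 20 autosomes. Shared peaks at anchors of the CP list only, the weakest class at anchors by GZ fold, had a GZ DNase peak in 80.7% (77.7 to 83.4%).

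Most members had the same DNase state in both tissues, as did most peaks at anchors. DNase peaks of both tissues covered 4053 of them (63.2%), a GZ peak alone 652 (10.2%), a CP peak alone 445 (6.94%) and neither 1262 (19.7%, 18.7 to 20.7%). At anchors the shares were 79.7%, 7.59%, 4.01% and 8.69% (8.17 to 9.24%). DNase peaks of both tissues covered 72.7% of all shared peaks. A DNase peak of either tissue thus lay at 80.3% of the peaks outside anchors, at 91.3% of those at anchors and at 86.7% of all shared peaks. The share of CTCF sites without open chromatin in either list was more than 10 percentage points higher away from anchors.

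The difference in DNase overlap was seen at every level of CTCF enrichment in GZ, but it was not uniform. In the weakest of 4 equal groups of GZ fold (folds up to 11.6), 64.1% (62.1 to 66.0%) of peaks outside anchors and 69.0% (66.8 to 71.1%) at anchors overlapped a GZ DNase peak. In the next groups the shares were 73.1% and 85.9%, then 79.2% and 91.6%. In the strongest group (folds from 24.2 upward) they were 87.5% (85.4 to 89.4%) and 94.7% (93.9 to 95.5%). For CP DNase peaks, the shares in the weakest group were 65.4% (63.5 to 67.3%) and 67.0% (64.8 to 69.1%), whose intervals overlap. They were 80.6% (78.1 to 82.9%) and 91.9% (91.0 to 92.8%) in the strongest. Grouped by GZ -log10 q instead, GZ DNase overlap went from 62.2% against 72.9% in the weakest group to 88.4% against 92.5% in the strongest.

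**Figure D3:**
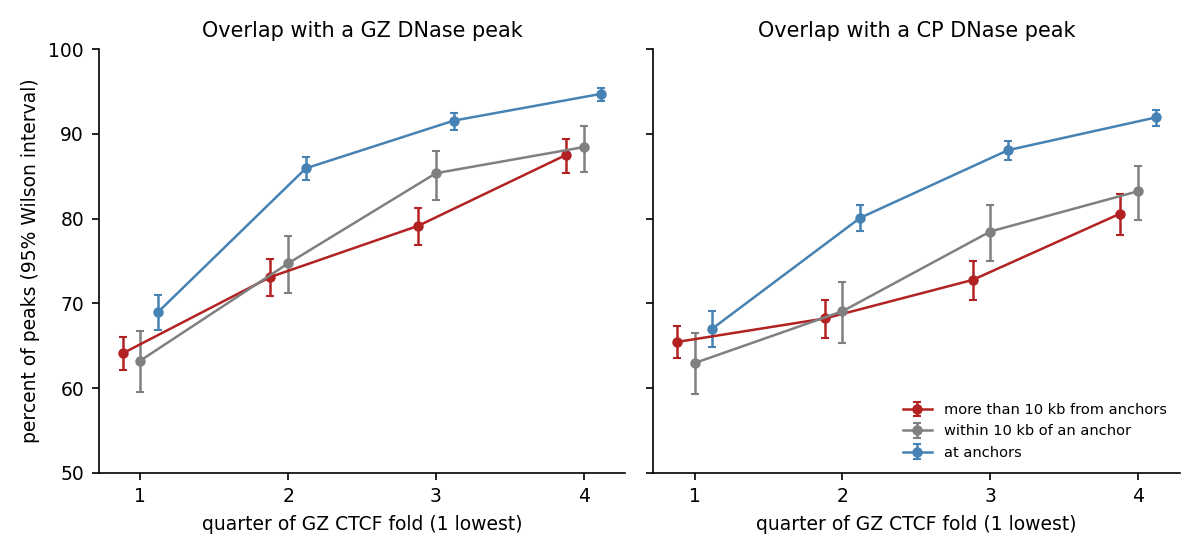
Percent of shared CTCF peaks that overlap a GZ (left) or CP (right) DNase peak (y axis, drawn from 50% to 100%), in 4 groups of equal size ordered by GZ CTCF fold (x axis), for peaks more than 10 kb from anchors (red), within 10 kb (grey) and at anchors (blue); bars are 95% Wilson intervals. In the second group the GZ shares are 73.1% outside anchors and 85.9% at anchors, and in the strongest 87.5% and 94.7%.

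CTCF levels differed between the DNase classes of the members. Median GZ fold was 15.8 with DNase peaks in both tissues and 16.0 with a GZ peak only, against 11.2 with a CP peak only and 11.8 with neither. Median CP fold was nearly level across the classes, at 6.73, 7.01, 6.70 and 6.64. The CP -log10 q, by contrast, was 23.4 with DNase in both tissues, 14.2 with GZ only, 16.6 with CP only and 13.2 with neither. GZ peaks were widest where both tissues had DNase, with a median of 392 bp, and measured 340 bp where neither did.

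Strong CTCF sites without a DNase peak also occurred. The strongest in GZ, chr14:7330888-7331225, had a GZ fold of 54.2 and a CP fold of 3.18, and lay 98.8 kb from an anchor. The peak chr19:49125489-49125983 had 46.8 in GZ and 7.10 in CP, and chr12:12019807-12020191 had 46.6 in GZ and 4.36 in CP. All 3 were above percentile 99 of the GZ list, while in CP they stood at percentiles 1.28, 51.2 and 9.49.

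Where a DNase peak was present, its level was more spread out away from anchors. The overlapped GZ DNase peak had a median normalized tag count of 0.918 (0.881 to 0.937) outside anchors and 1.05 (1.05 to 1.07) at anchors. The 10th percentile was 0.431 outside anchors and 0.506 at anchors, and at the upper end the order was reversed, with the 90th percentile at 3.72 and 2.34. The CP values were 1.01 and 1.09 at the median, and 3.54 and 2.40 at the 90th percentile. The fold over local background in the GZ DNase list had medians of 13.0 and 14.9 and 90th percentiles of 35.4 and 30.8. Members thus held both more weak and more strong DNase peaks than peaks at anchors did. No other GZ DNase peak lay within 10 kb of 44.8% (43.6 to 46.0%) of members. The share was 38.7% (37.8 to 39.6%) at anchors and 40.1% for all shared peaks. A member lies more than 10 kb from every anchor, so no DNase peak contained in an anchor can be counted for it. These shares are thus set in part by the choice of members.

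Domain boundaries lay slightly less often near the members than near shared peaks at anchors. A boundary of either tissue lay within 40 kb of 1626 members (25.4%, 24.3 to 26.4%), against 28.3% (27.4 to 29.1%) at anchors and 27.5% of all shared peaks. Among peaks within 10 kb of an anchor the share was 29.5%. For reference, 14.0% of the autosomal sequence lies within 40 kb of a boundary, with the length of each autosome taken as its highest coordinate in the files. Inside the boundary bin itself the shares were 10.9% (10.2 to 11.7%) outside anchors and 11.4% (10.8 to 12.0%) at anchors, whose intervals overlap. On single autosomes the share within 40 kb was lower outside anchors on 14 and higher on 6 of 20. The share within 40 kb of a boundary thus lay near that of all shared peaks.

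Over all members, distances gave a clearer separation than the shares. The median gap to the nearest boundary of either tissue was 143 kb (137 to 149) outside anchors, 115 kb within 10 kb of an anchor and 114 kb (110 to 117) at anchors. To the nearest GZ boundary it was 161 kb and 132 kb outside and at anchors, and to the nearest CP boundary 178 kb and 151 kb. The median gap to either was larger outside anchors on 17 of 20 autosomes. Among members, however, this gap was larger with greater distance from an anchor, the measure that chose them. It was 105 kb (90.7 to 120) at 10 to 20 kb from an anchor and 110 kb (99.3 to 119) at 20 to 50 kb. Both intervals include the 114 kb of peaks at anchors. At 200 to 500 kb it was 383 kb (347 to 408). The larger median over all members is thus set in part by their choice.

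Boundaries with shared CTCF peaks outside anchors and none elsewhere were a small class. Among 2704 autosomal GZ boundaries, 397 (14.7%, 13.4 to 16.1%) had such peaks and no other shared peak within 40 kb, 1603 (59.3%) had a shared peak at an anchor, and 557 (20.6%) had no shared peak. Their median strength, a score that the authors deposited without a column name, was 0.706 (0.645 to 0.747), 0.621 (0.603 to 0.642) and 0.582 (0.537 to 0.629) in that order. Among 2486 autosomal CP boundaries the same classes held 14.0%, 60.0% and 20.4%, with strengths of 0.619 (0.569 to 0.663), 0.588 (0.567 to 0.608) and 0.575 (0.545 to 0.619). The GZ boundaries with only such peaks were thus stronger at the median than those with a peak at an anchor by more than counting error, and in CP the intervals overlapped.

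Members within 40 kb of a boundary differed little in CTCF fold from the others, but had higher -log10 q and wider peaks. Their median GZ fold was 14.9 against 14.2 for the 4786 farther away, and their CP fold 6.61 against 6.79. Median GZ -log10 q was 60.3 (56.3 to 65.1) against 53.2 (50.6 to 55.0). In CP it was 20.4 (19.6 to 21.2) against 18.4 (18.0 to 18.9). Median width was 382 bp against 369.5 bp in GZ and 318 bp against 305 bp in CP. More of the members near a boundary overlapped a GZ DNase peak, at 77.7% (75.7 to 79.7%) against 71.9% (70.6 to 73.2%).

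Close neighbours were fewer around members than around shared peaks at anchors, while wide gaps were alike. The median gap to the nearest other shared peak was 31.0 kb (30.1 to 32.4) outside anchors, 13.0 kb (12.6 to 13.7) within 10 kb of an anchor and 22.3 kb (21.5 to 23.2) at anchors. It was larger outside anchors than at anchors on all 20 autosomes. In the upper part of the distribution the order was lost, with 75% of gaps up to 66.8 kb outside anchors and 65.5 kb at anchors, and 90% up to 138 kb in both. Since a member lies more than 10 kb from every anchor, no peak contained in an anchor can be within 10 kb of it, and the short end of this spacing is set in part by the choice of members. The median gap also differed with distance from an anchor. In the 1175 members at 10 to 20 kb it was 19.4 kb (18.7 to 19.9), below that of peaks at anchors. It was 31.0 kb at 20 to 50 kb and 92.5 kb at 200 to 500 kb. Another shared peak lay within 10 kb of 1225 members (19.1%, 18.2 to 20.1%), of 34.9% (34.0 to 35.8%) of peaks at anchors and of 30.2% of all shared peaks. To the nearest other GZ peak, shared or not, the median gap was 22.2 kb outside anchors and 13.5 kb at anchors. The nearest other member lay a median of 67.1 kb away.

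**Figure D4:**
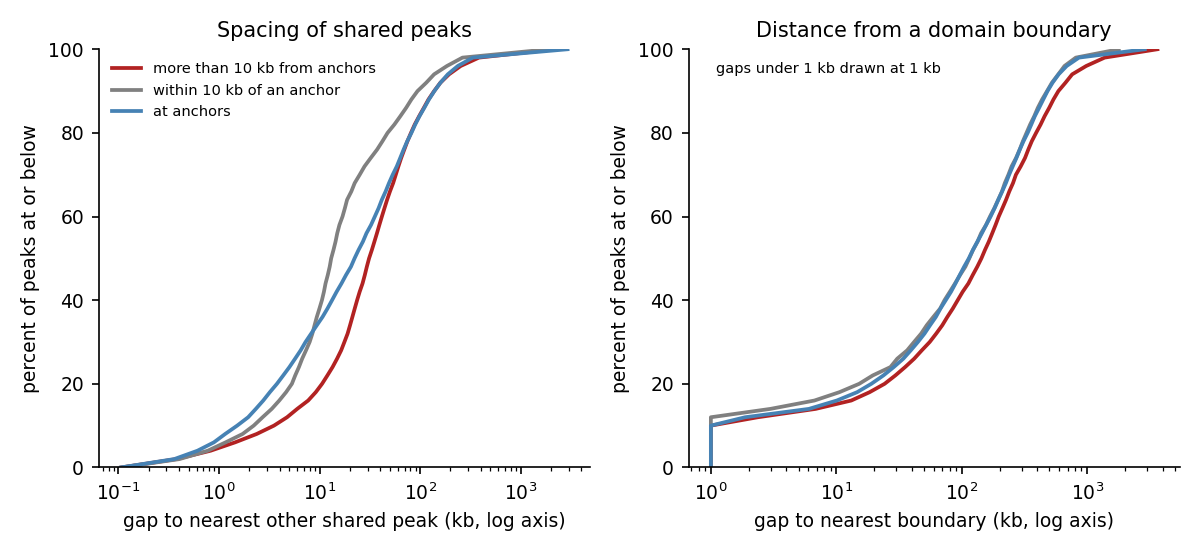
Cumulative curves of the gap to the nearest other shared CTCF peak (left) and to the nearest domain boundary of either tissue (right), in kb on log axes, with the percent of peaks at or below each gap on the y axis, for peaks more than 10 kb from anchors (red), within 10 kb (grey) and at anchors (blue). The red curves lie to the right of the blue ones at the median, 31.0 against 22.3 kb for spacing and 143 against 114 kb for boundaries, and for spacing they meet in the upper part.

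Crowded members differed from lone ones in their chromatin. The 1225 with another shared peak within 10 kb had a median GZ fold of 15.5, against 14.2 for the 5187 without. Their median CP fold was 6.54 (6.37 to 6.73) against 6.79 (6.66 to 6.90), and these intervals overlap. Median CP -log10 q, by contrast, was higher in the 1225, at 21.3 (20.4 to 22.8) against 18.5 (18.1 to 18.9). Their median CP width was 327 bp (319 to 334) against 304 bp (300 to 307). Fewer of them overlapped a GZ DNase peak, at 65.6% (62.9 to 68.2%) against 75.2% (74.0 to 76.4%). Only 10.8% of them had no other GZ DNase peak within 10 kb, against 52.8% of lone members, a count in which a DNase peak at the neighbouring CTCF peak is included. Of the members without DNase in either tissue, 26.0% (23.6 to 28.5%) had another shared peak within 10 kb, against 17.1% (16.0 to 18.3%) of those with DNase in both.

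Along the autosomes, most runs of members were short, though most members were not alone in their run. Taking shared peaks in order, the 6412 members formed 3372 unbroken runs without a shared peak at or within 10 kb of an anchor between them. Of these runs 1978 held a single peak, 1194 held 2 to 4, 171 held 5 to 9 and 29 held 10 or more. In that order they held 30.8%, 47.1%, 16.4% and 5.65% of the members. The sequence more than 10 kb from every anchor covers 81.1% of the autosomal length and held 2.95 shared peaks per Mb. The 7.73% of the length that is anchor held 52.0 per Mb. These densities rest on the anchor distance that chose the members and are given as a description.

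Chromosomes 19 and 20 stood out in their shares. On chromosome 19, 457 of 963 shared peaks (47.5%, 44.3 to 50.6%) were outside anchors, and on chromosome 20 it was 41.2% (37.8 to 44.7%). The other 18 autosomes lay between 27.9% on chromosome 8 and 35.2% on chromosome 10. Members were densest on chromosome 19, at 8.52 per Mb, and sparsest on chromosome 5, at 1.23 per Mb. On chromosome 5, 29.4% of the 800 shared peaks were outside anchors, near the 32.7% over all autosomes. These shares and densities rest on the anchor distance that chose the members and are given as a description. The density of all shared peaks on each chromosome was not set beside them. The median GZ fold on chromosome 19 was 16.4 outside anchors and 20.1 at anchors, so that the lower enrichment outside anchors was seen there too.

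The 3 most isolated members stood at percentiles 29.4, 32.9 and 56.2 of the GZ list. The peak chr12:27165880-27166125 lay 2201 kb from any other shared peak, with folds of 9.12 in GZ and 9.68 in CP. The peaks chr17:46034450-46034744 and chr17:42208069-42208340 lay 1764 kb and 1711 kb from any other, with GZ folds of 9.82 and 15.4.

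Among the members themselves, the distance from the nearest anchor had a median of 45.5 kb, with the middle 50% of peaks between 24.4 and 91.6 kb. The farthest, chr1:80261694-80262012, lay 1532 kb from an anchor with folds of 12.9 in GZ and 15.8 in CP. It was followed by chr12:5480591-5480985 at 1499 kb and chr5:90803107-90803362 at 1253 kb. All 3 overlapped a GZ DNase peak.

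GZ fold varied little with that distance, CP fold was highest at 200 to 500 kb, and -log10 q and GZ width were lower farther out. Median GZ fold was 14.7 in the 1175 members at 10 to 20 kb, 14.8 in 2270 at 20 to 50 kb, 14.0 in 1528 at 50 to 100 kb, 14.1 in 946 at 100 to 200 kb and 14.2 in 407 at 200 to 500 kb. The 86 members beyond 500 kb had 13.3 (10.6 to 15.8). Median CP fold lay between 6.65 and 7.32 over the same groups. It was 6.65 (6.54 to 6.80) at 20 to 50 kb and 7.32 (6.90 to 7.63) at 200 to 500 kb. The interval of the latter group included the 7.34 of peaks at anchors, so a lower CP fold than at anchors was not seen in these 407 members. Their median CP -log10 q, 17.3 (15.5 to 19.7), was nonetheless below the 26.1 at anchors. Their median CP width, 300 bp (289 to 310), was below the 327 bp at anchors. Median GZ -log10 q was lower in each successive group, at 61.0 (56.3 to 65.9), 57.7, 51.9, 48.0, 45.0 (37.8 to 51.4) and 33.6 (25.6 to 56.8), and CP -log10 q went from 20.0 to 16.8 in the same order. Median GZ width was 376 bp (372 to 381) in the nearest group, 352 bp (342 to 363) at 200 to 500 kb and 341 bp (304 to 380) beyond. Overlap with a GZ DNase peak lay between 70.9% and 78.6% without a steady order. The share with a boundary within 40 kb, in contrast, went from 31.7% (29.1 to 34.5%) at 10 to 20 kb, through 28.9% and 27.3%, to 15.1% (13.0 to 17.5%) at 100 to 200 kb, 8.35% (6.04 to 11.4%) at 200 to 500 kb and 2.33% beyond. In the nearest of these groups the boundary share was thus above the 28.3% (27.4 to 29.1%) of peaks at anchors, with the ends of the 2 intervals nearly meeting.

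**Figure D5:**
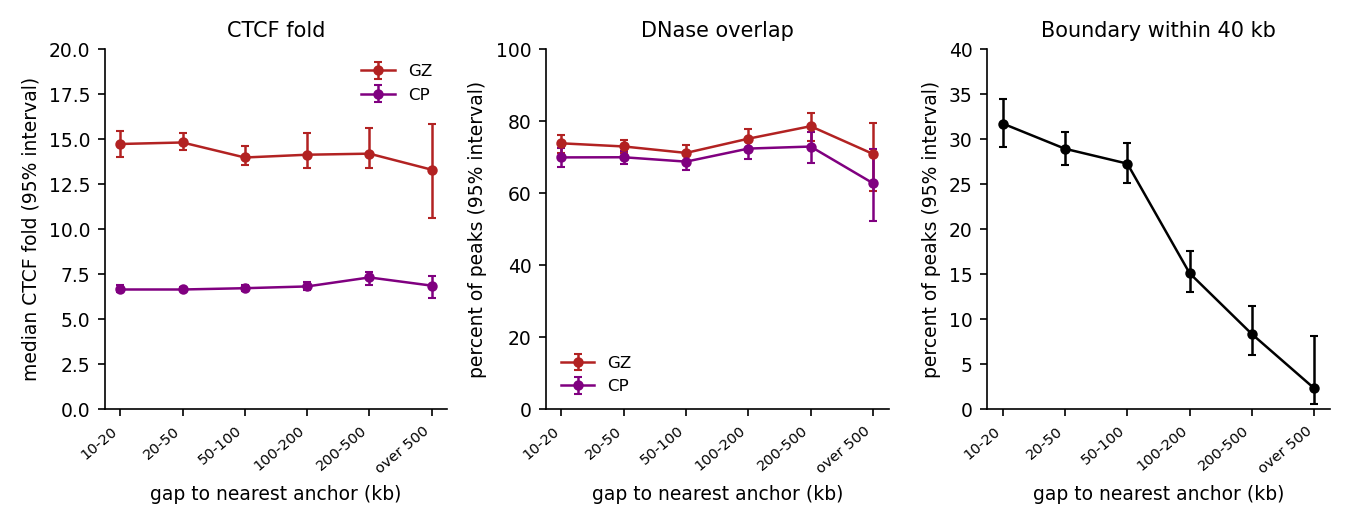
Shared CTCF peaks outside anchors grouped by gap to the nearest anchor in kb (x axis): median CTCF fold with 95% order-statistic intervals (left), percent overlapping a DNase peak of GZ (red) or CP (purple, middle) and percent within 40 kb of a boundary (right), with 95% Wilson intervals. Fold and DNase overlap stay nearly level, while the boundary share goes from 31.7% at 10 to 20 kb to 2.33% beyond 500 kb.

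The share of members inside loops of up to 2 Mb was near that of all shared peaks and below the share of autosomal length that such loops cover. A GZ loop of up to 2 Mb spanned 4239 members (66.1%, 64.9 to 67.3%), against 69.1% (68.2 to 69.9%) of peaks at anchors and 68.9% of all shared peaks. A CP loop of that size spanned 49.4% (48.2 to 50.6%) of members, against 50.3% (49.3 to 51.2%) at anchors and 51.1% of all shared peaks. Such loops cover 74.1% of the autosomal length in GZ and 60.9% in CP. The shortest GZ loop around a member had a median span of 390 kb, against 500 kb around a peak at an anchor. In CP the spans were 440 and 540 kb. A loop was counted only where the peak lay wholly between its anchors, so a peak at an anchor never counts the loops it anchors. The shares and spans of members and of peaks at anchors are therefore shaped in part by this definition.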

How the data were processed

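The authors deposited CTCF peaks as MACS2 narrowPeak lists that give each peak's score, −log10 p and q, and a ratio of signal to background (the fold enrichment). The lowest −log10 p is 5.01 in GZ and 5.04 in CP, and peak names contain the word merge, so runs may have been merged. The HOMER lists of DNase peaks give a score, a fold over local background and a normalized tag signal, per the file headers. The HiCCUPS loops have observed counts of contacts, an expected signal and FDRs, which are q-values, per the file headers. Boundary scores on 40 kb bins were deposited by the authors without a header and were taken as strengths. RNA values are log2 FPKM normalized with cqn, per the labels. Tools named in the submitters' processing notes are Bowtie2, HiC-Pro, HOMER, MACS2, SAMtools, STAR and deepTools, and the builds are Mmul_8.0.1 and rheMac8, with caller settings not given in the sources used here. Hi-C contact files were replaced and runs added after deposit, per the series notes, and no source used here tells from which of them the loops and boundaries were called. The 2 CTCF input libraries were not used here.

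Overlap meant at least 1 bp, gaps ran edge to edge, and a GZ peak overlapping several CP peaks took the values of the CP peak with the highest fold. Intervals are 95% Wilson or order-statistic intervals (Python 3.11.15, numpy 2.4.6, pandas 2.3.3, scipy 1.17.1), and the overlap code was tested on made-up lists with known answers. Alternatives were other anchor distances and other rules for loops, peaks, DNase and boundaries. Named are members highest in GZ or CP fold, widest, farthest from an anchor, most isolated, strongest without DNase and next to the 10 kb limit. Members and lists were chosen with earlier results of these data known. No genome of the files' build was used.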

Additional observations from a re-analysis of the deposited data

How the results depend on the processing

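The number of members ranged from 2967 to 8850, and was 4753 beyond 25 kb. For the other 5 measures, 24 of 41 recomputed values were within counting error of the reported value, and all 41 stayed on the same side of the value at anchors; merging overlapping rows of a CTCF list is left out of these counts, since no rows overlapped. With members taken at any distance outside anchors, median GZ fold was 15.1, the boundary share 26.5% and the gap to the next shared peak 25.3 kb. Beyond 25 kb the boundary share was 23.2% and the gap 40.9 kb. Beyond 50 kb there were 2967 members, with a GZ fold of 14.1, a CP fold of 6.84, a boundary share of 20.1% and a gap of 57.4 kb. Requiring 50% of both peaks to overlap gave a gap of 32.4 kb, and -log10 q of at least 5 gave a CP fold of 6.84. GZ DNase overlap was 58.0% when the CTCF summit had to lie in the DNase peak, 78.7% within 500 bp and 50.1% with the upper 50% of the DNase list. The boundary share was 37.0% within 80 kb, 20.5% with boundaries of both tissues, and 14.3% with the stronger 50% of boundaries, against 14.7% at anchors. No paired analysis was possible because the results come from no test and CTCF and DNase had 1 library per tissue; for the same reason no library could be left out. Depth of these libraries is unknown, so weak sites missed in either list cannot be counted.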

Other observations

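Across the 6412 members, Spearman's rho between the tissues was 0.118 for fold, 0.667 for -log10 q and 0.527 for width. At anchors the same values were 0.0648, 0.739 and 0.532. These are correlations across sites of 1 library per tissue, given as descriptions. Within GZ, fold and -log10 q of members had a rho of 0.774, and within CP 0.442.

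The longest runs of members, chosen after their values were seen, were 24 consecutive shared peaks at chr19:11740946-12838146, 22 at chr20:9336-774469, 18 at chr1:4570-416156, 16 at chr19:37596388-37913552 and 15 at chr4:28804373-30113844. The runs on chromosomes 20 and 1 begin within 10 kb of the first base of the chromosome and have no boundary within 40 kb of any peak. In the run of 24, GZ folds went from 3.62 to 47.9, 13 peaks overlapped a GZ DNase peak and 11 lay within 40 kb of a boundary.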
